A study of Mus musculus with 20 samples.

Results

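Paraspinal tumors of subgroup 1 were compared with neurofibromas by bulk RNA sequencing of mouse nerve tumors. Subgroup 1 is represented by the 2 libraries that carry that name in their titles, of 20 in the whole series, and the neurofibromas by 12. The neurofibromas came from Nf1fl/fl; DhhCre mice, where Cre under the Dhh promoter works in Schwann cells and their precursors and deletes the floxed Nf1 gene there. The paraspinal tumors came from mice of genotype Ink4a/Arf+/-; Nf1fl/fl; DhhCre, which carry in addition 1 disrupted copy of the Ink4a/Arf locus. All mice were C57BL/6J and received no drug, and their age is not given. Because the labels describe subgroups 1 and 2 as sub-clusters, expression itself may have set them apart. No label ties a library to its own animal, and p-values measure only how these samples vary, which may be technical.

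Neurofibromin, the product of Nf1, switches RAS proteins off, and Schwann cells that lose it form benign nerve tumors called neurofibromas. The Ink4a/Arf locus, Cdkn2a, encodes 2 proteins that hold back cell division, one through the cyclin-dependent kinases that inactivate RB and one through p53. Tumors that also lose this locus are known to be closer to malignancy. The comparison asks which transcripts differ between neurofibromas and subgroup 1 of the paraspinal tumors, which arose in mice with the disrupted locus.

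Subgroup 1 libraries held 18949487 and 18490232 counts, and neurofibroma libraries 9900759 to 17594164. The 12 neurofibroma libraries came from 2 sequencing runs (6 each) and both subgroup 1 libraries from another run, shared with subgroup 2 and with the 4 libraries of GEM-PNST, the labels' name for the malignant tumors. Run, genotype and stage therefore cannot be told apart, and no value within a run can be given. The column names of neurofibroma libraries 8 and 9 share a stem. Apart from case, so do those of subgroup 1 library 1 and GEM-PNST library 2. Whether either pair came from the same animal is not given, and the tests treat all libraries as separate. Ribosomal RNA (the Rn45s row) took 3.48% to 18.9% of counts in neurofibroma and 0.441% and 0.953% in subgroup 1, Malat1 took 2.52% to 3.58% and 0.0668% and 0.0874%, and ribosomal protein genes took 0.846% to 1.52% and 2.30% and 1.84% (exact two-sided permutation tests, adjusted p = 0.022 for each, the smallest p that 2 against 12 libraries can give). Between the 2 neurofibroma runs 0 of 15327 genes (0%) passed the threshold by edgeR, also with RLE factors and with no filter. The smallest adjusted p by edgeR was 0.0568, and 2151 genes (14%) had an unadjusted p under 0.05, so a difference between the runs is not excluded.

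Of 17258 genes tested, 5907 (34.2%) passed an adjusted p of 0.05 between subgroup 1 and neurofibroma, of which 3001 (17.4% of genes tested) were higher and 2906 (16.8%) were lower in subgroup 1. The median log2 fold change over all genes tested was -0.08. Both subgroup 1 libraries lay above all 12 neurofibroma libraries in 3743 genes (21.7%) and below them in 3552 (20.6%). With only the scaling changed, to RLE factors, 5770 genes passed and 44.0% of them were higher, against 50.8% here, and the median of all genes moved by -0.12. DESeq2, which also differs in its test and in the genes it tests, called 6817 genes, of which 38.4% were higher.

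The calls followed the base composition of the transcripts. In the quintile of genes with the lowest GC content (29.6% to 43.8% GC) 2.11% were higher and 38.5% lower in subgroup 1, and the median log2 fold change was -0.93. In the quintile with the highest GC content (55.4% to 78.6%) 43.3% were higher and 3.05% lower, and the median was 1.03. Over transcript length the medians went from 0.17 in the shortest quintile to -0.56 in the longest. Between the neurofibroma runs the medians over the GC quintiles lay between 0.001 and 0.028. When a trend over length and GC content was removed from each library, 3453 of 16935 genes tested passed, 1621 higher and 1832 lower. In both fits 2683 genes were called, 26 of them with the opposite sign. Counts of list members after trend removal are to be set against these 1621 and 1832 genes, not against the larger shares as fitted. For the genes described below, the value after this removal is given where it ended the call.

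**Figure D1:**
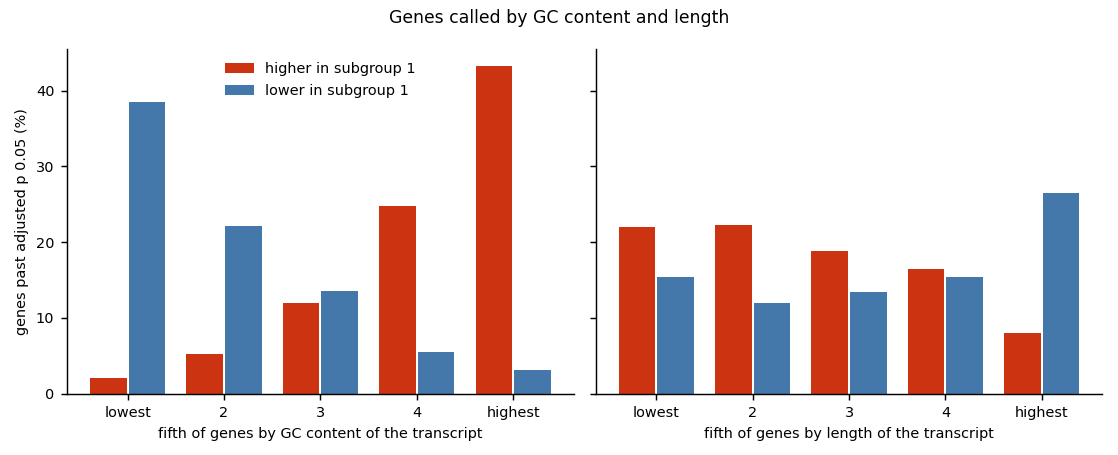
Share of genes tested (percent, vertical axis) that passed an adjusted p of 0.05 in each quintile of genes by transcript GC content (left) and transcript length (right). Red bars are genes higher and blue bars genes lower in subgroup 1. The share that was higher went from 2.11% to 43.3% over the GC quintiles and from 22% to 8% over the length quintiles.

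The targeted genes were read first. Nf1, on chromosome 11 (GRCm38, 79339693 to 79581612), had 217.7, 253.4 and 275.5 CPM (counts scaled to a common library size, given as lowest, median and highest) in the 12 neurofibroma libraries, and 90.3 and 88.1 CPM in subgroup 1 libraries 1 and 2. Both subgroup 1 libraries lay below every neurofibroma library. The log2 fold change of Nf1 was -1.48 (SE 0.16, adjusted p = 1.39e-06). All changes below are on this log2 scale. After removal of the length and GC trend its log2 fold change was -0.46 (adjusted p = 0.134).

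Cdkn2a, on chromosome 4 (89274471 to 89294653), had 0.0859, 0.369 and 1.44 CPM in neurofibroma and 15.3 and 7.94 CPM in subgroup 1. Every subgroup 1 value lay above every neurofibroma value, although these mice carry only 1 intact copy of the locus. Cdkn2a rose by 4.54 (SE 0.63, adjusted p = 1.86e-05), and by 3.35 (adjusted p = 0.00123) after trend removal. Its neighbor Cdkn2b, another inhibitor of cyclin-dependent kinases, had 28.2 and 25.3 CPM in subgroup 1 against 2.41 to 27.6 in neurofibroma and did not pass (log2 fold change 0.88, SE 0.75, adjusted p = 0.4). The counts cover whole genes and all cells of the tumor, so they do not check the deletions. Both subgroup 1 libraries came from males by their transcripts (Ddx3y, a Y-linked helicase, at 34.9 and 36.7 CPM, and Xist, which silences one X chromosome in females, at 0.166 and 0.222 CPM), while in neurofibroma Ddx3y ranged from 0 to 90.2 and Xist from 1.48 to 3636 CPM.

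**Figure D2:**
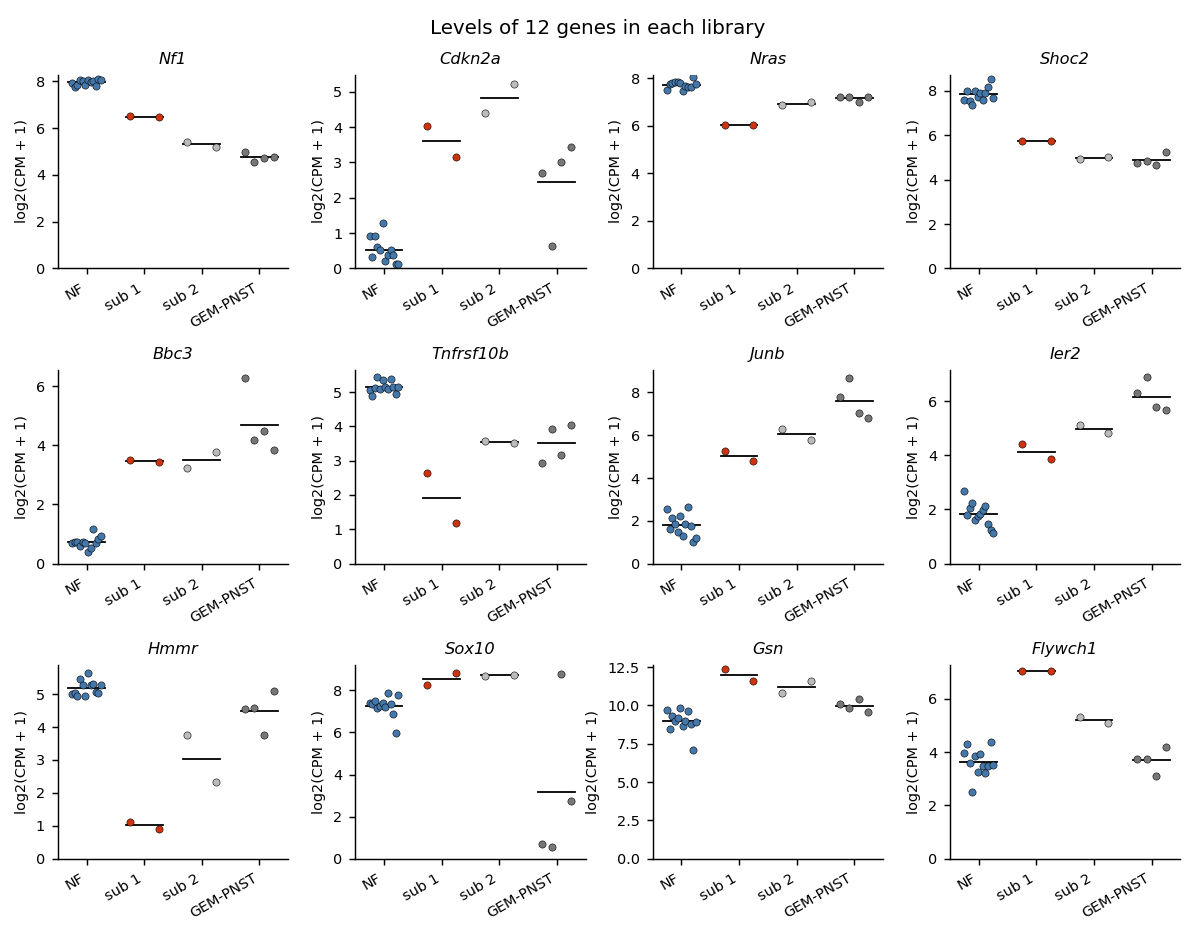
Level of 12 genes in each of the 20 libraries, as log2(CPM + 1), for neurofibroma (NF, blue), subgroup 1 (sub 1, red), subgroup 2 (sub 2, light grey) and GEM-PNST (dark grey). Points are libraries and bars are means. In every panel both red points lie on the same side of all 12 blue points, as they did above in 21.7% and below in 20.6% of all genes tested. The genes shown are a selection, and genes that overlapped, such as Trp53 and Cdkn1a, are not among them. Subgroup 2 and GEM-PNST are shown for comparison without a test.

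Genes of the RAS pathway moved in both directions. Of 24 tested members of a list of RAS GTPases, their brakes and their adaptors, 5 rose (20.8%, against 17.4% of all genes) and 8 fell (33.3%, against 16.8%), with a median log2 fold change of 0.00. After trend removal only 1 rose and 3 fell, with a median of -0.325. Among the RAS GTPases described here, Nras fell and Hras rose. Nras had 175.2, 216.5 and 264.2 CPM in neurofibroma and 64.6 and 64.9 CPM in subgroup 1, the lowest of all 20 libraries, while subgroup 2 had 115.7 and 126.4 and GEM-PNST 124.9 to 147.3. It fell by 1.71 (SE 0.17, adjusted p = 5.83e-07), and the call was kept in every alternative run. Hras had 11.3 to 30.7 CPM in neurofibroma and 54.0 and 55.9 in subgroup 1. It rose by 1.68 (SE 0.27, adjusted p = 8.06e-05), and after trend removal its log2 fold change was 0.77 (adjusted p = 0.0652).

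Among the partners of RAS, Shoc2, a scaffold that helps RAS activate RAF, had 164.4, 226.6 and 371.9 CPM in neurofibroma and 51.8 and 53.3 in subgroup 1. The groups did not overlap, and Shoc2 fell by 2.15 (SE 0.28, adjusted p = 1e-05), and by 1.45 after trend removal. Sos1, which loads RAS with GTP, fell by 1.35 (SE 0.27, adjusted p = 0.0007). The Sos1 call was lost after trend removal (-0.28, adjusted p = 0.385) and without subgroup 1 library 1 (adjusted p = 0.0592). Lztr1, which directs RAS proteins to degradation, rose by 1.15 (SE 0.23, adjusted p = 0.000534), with 138.5 and 174.6 CPM in subgroup 1 against 42.4 to 101.5. Nf2, which encodes merlin, another tumor suppressor of Schwann cells, rose by 0.95 (SE 0.18, adjusted p = 0.000312), with 118.3 and 115.0 CPM against 44.2 to 76.7. The calls of Lztr1 (0.41, adjusted p = 0.207) and Nf2 (0.33, adjusted p = 0.227) were lost after trend removal. Of 15 tested genes of ERK feedback and output, 2 rose (13.3%, against 17.4% of all genes) and 1 fell (6.67%, against 16.8%). After trend removal 0 rose and 1 fell.

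The RB pathway, through which the p16 product of Cdkn2a acts, had members that rose and members that fell. Of 21 tested 5 rose (23.8%, against 17.4% of all genes) and 3 fell (14.3%, against 16.8%), shares near those of all genes, with a median of -0.16. Cdkn1b, which encodes the cell cycle inhibitor p27, had 22.8, 30.9 and 52.8 CPM in neurofibroma and 65.6 and 82.7 in subgroup 1, above every neurofibroma library. It rose by 1.2 (SE 0.27, adjusted p = 0.00186), and by 1.74 after trend removal. Cdk4, a kinase that p16 inhibits, had 19.7 to 42.4 CPM in neurofibroma and 68.5 and 66.6 in subgroup 1, and rose by 1.02 (SE 0.26, adjusted p = 0.00449). After trend removal the log2 fold change of Cdk4 was 0.52 (adjusted p = 0.205). Its partner kinase Cdk6 went the other way, from 15.1, 40.2 and 113.7 CPM in neurofibroma to 5.49 and 4.65. Cdk6 fell by 3.15 (SE 0.79, adjusted p = 0.00417). The Cdk6 call was lost without subgroup 1 library 1 (adjusted p = 0.0639) or 2 (adjusted p = 0.0771). Rb1, the retinoblastoma protein gene, fell by 2.02 (SE 0.45, adjusted p = 0.00146), from 82.5 to 113.8 CPM in neurofibroma to 25.4 and 23.4.

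Trp53 itself had 54.2 and 47.3 CPM in subgroup 1, within the neurofibroma range of 32.8 to 71.0, and a log2 fold change of -0.10 (SE 0.28, adjusted p = 0.821). Of 27 tested genes of p53, its regulators and its targets, 6 rose (22.2%, against 17.4% of all genes) and 9 fell (33.3%, against 16.8%), with a median of -0.21. After trend removal 2 rose and 6 fell, in a fit where 1621 and 1832 of 16935 genes did. Among the targets that promote cell death, Bbc3 and Bax rose and Tnfrsf10b and Apaf1 fell. Bbc3, which encodes PUMA, had 0.314, 0.636 and 1.24 CPM in neurofibroma and 10.2 and 9.88 in subgroup 1. The groups did not overlap. Bbc3 rose by 3.89 (SE 0.40, adjusted p = 5.84e-07), and by 1.94 after trend removal (adjusted p = 0.00418). Bax had 6.87 to 13.8 CPM in neurofibroma and 33.9 and 34.5 in subgroup 1, and rose by 1.78 (SE 0.26, adjusted p = 3.07e-05), but its log2 fold change was 0.14 (adjusted p = 0.822) after trend removal. Tnfrsf10b, a death receptor, had 28.6, 34.0 and 42.4 CPM in neurofibroma and 5.28 and 1.28 in subgroup 1. Both subgroup 1 values were the lowest of all 20 libraries. Tnfrsf10b fell by 3.40 (SE 0.44, adjusted p = 8.74e-06), and by 3.44 after trend removal. Apaf1, which forms the apoptosome, had 15.3 and 11.7 CPM in subgroup 1 against 14.9 to 45.0 and fell by 1.03 (SE 0.36, adjusted p = 0.0344), and after trend removal its log2 fold change was -0.56 (adjusted p = 0.366). The Apaf1 call was also lost without subgroup 1 library 1 (adjusted p = 0.149) or 2 (adjusted p = 0.332) and with neurofibroma run 2 alone (adjusted p = 0.107).

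Both main inhibitors of p53 were lower in subgroup 1. Mdm2, which marks p53 for degradation and is itself a p53 target, fell by 0.96 (SE 0.17, adjusted p = 0.000223), with 47.7 and 46.8 CPM against 78.4 to 107.7. Mdm4, its relative, fell by 1.58 (SE 0.27, adjusted p = 0.000121), with 54.6 and 46.5 CPM against 97.2 to 184.7. Ccng1, a cyclin induced by p53, fell by 1.5 (SE 0.23, adjusted p = 5.59e-05), with 76.5 and 72.3 CPM against 165.6 to 267.4. These 3 genes passed after trend removal as well. Cdkn1a, which encodes the cell cycle inhibitor p21, overlapped between the groups (116.8 and 181.3 CPM against 100.6 to 332.2), with a log2 fold change of -0.29 (SE 0.40, adjusted p = 0.626).

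**Figure D3:**
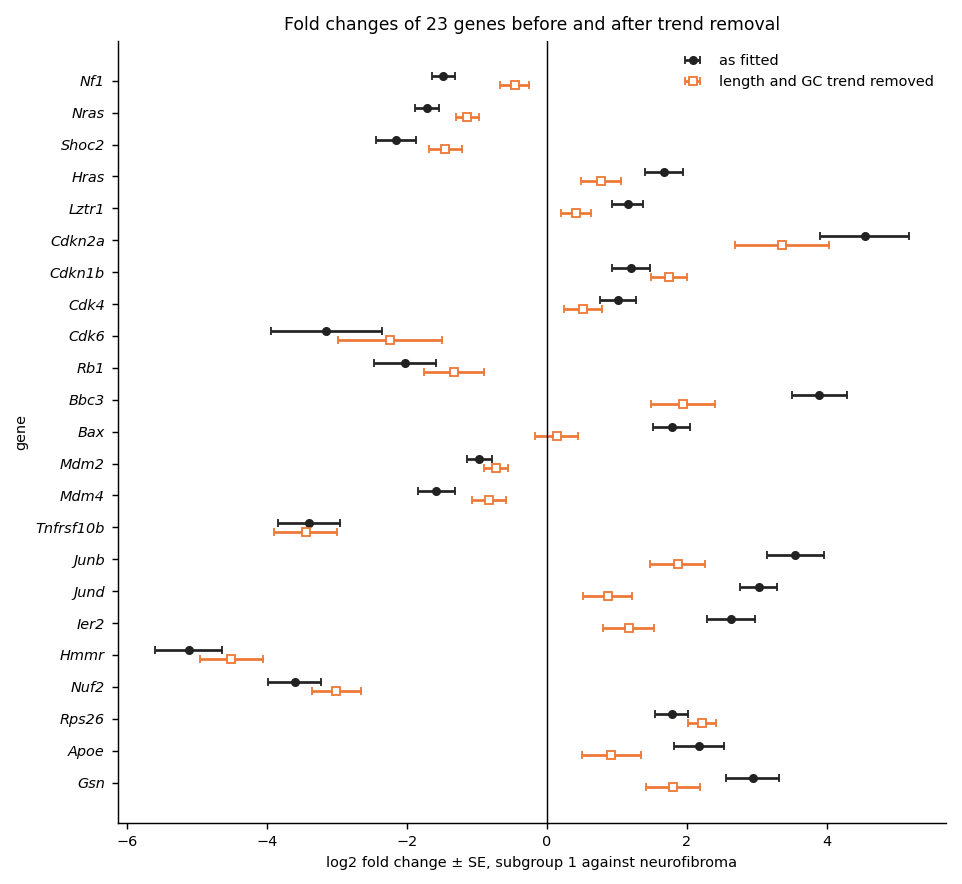
Log2 fold change of subgroup 1 against neurofibroma, with its standard error, for 23 genes as fitted (black circles) and after a trend over transcript length and GC content was removed (orange squares). Tnfrsf10b was at -3.40 and -3.44, while Bax moved from 1.78 to 0.14 and Nf1 from -1.48 to -0.46.

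Immediate early genes, the transcription factors that cells switch on within minutes of a growth or stress signal, had 6 members higher and 1 lower. Of 25 tested members 6 rose (24%, against 17.4% of all genes) and 1, Klf6, fell (4%, against 16.8%), with a median of 0.43, and after trend removal 2 rose and 0 fell, with a median of -0.06. Klf6, a zinc finger factor, fell by 0.82 (SE 0.28, adjusted p = 0.0264), and after trend removal its log2 fold change was -0.26 (adjusted p = 0.585). The Klf6 call was also lost without subgroup 1 library 1 (adjusted p = 0.245) or 2 (adjusted p = 0.189) and with neurofibroma run 2 alone (adjusted p = 0.0664). Junb, an AP-1 subunit, had 1.03, 2.49 and 5.34 CPM in neurofibroma and 37.2 and 26.7 in subgroup 1, and no values overlapped. It rose by 3.55 (SE 0.41, adjusted p = 2.27e-06), and by 1.87 after trend removal. Ier2, a nuclear protein of the same early response, had 1.21 to 5.35 CPM in neurofibroma and 20.1 and 13.5 in subgroup 1, and rose by 2.63 (SE 0.34, adjusted p = 8.62e-06), and by 1.17 after trend removal. Jund, another AP-1 subunit, had 10.1 to 23.6 CPM and 129.4 and 118.9, and rose by 3.03 (SE 0.27, adjusted p = 1.07e-07). Jun, the third subunit of this family, had 41.5 to 94.8 CPM and 153.5 and 137.5, and rose by 1.18 (SE 0.32, adjusted p = 0.00695). After trend removal Jund (0.87, adjusted p = 0.0894) and Jun (0.21, adjusted p = 0.725) did not pass, and Jun was also lost without subgroup 1 library 1 (adjusted p = 0.0588). Fos, the usual partner of the JUN proteins, lay above all neurofibroma libraries (21.3 and 23.3 CPM against 2.58 to 18.3) without passing the test (log2 fold change 1.06, SE 0.55, adjusted p = 0.15). In the same comparison 4 of 15 genes of the unfolded protein and integrated stress response rose (26.7%, against 17.4% of all genes) and 0 fell, and after trend removal 1 rose. Among them Ddit3, which encodes the stress factor CHOP, rose by 1.44 (SE 0.34, adjusted p = 0.00237), with 27.2 and 26.4 CPM against 5.49 to 12.9.

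The start-site windows of the immediate early and p53 genes past the threshold were searched for known response elements, because several of these genes rose together. RefSeq windows of GRCm38.p6, from 250 bases before to 50 bases after a start site, were found for 17 of 22 of these genes. On either strand the windows of Jun, Junb, Jund, Nr4a1, Klf2 and Bbc3 held no cAMP response element (TGACGTCA), no AP-1 site (TGACTCA) and no serum response element, which were present in 1.79%, 5.2% and 1.63% of 32851 windows. Among the windows of all 17 genes the only match to these 3 elements was an AP-1 site in 1 of the 2 windows of Mdm4. No p53 response element was searched for, and near matches to the letters of the cAMP response element and the AP-1 site were not counted. Ier2 had no window. The Jund window (chr8:70697489-70697788) ended before the GENCODE start of the gene (70698949), so that start was not searched. The windows of Nr4a1 and Bbc3 began after the GENCODE starts of these genes (101254269 and 16308393), which were not searched either. The windows of Junb and of the first Bbc3 start site, of 3 in the table, are shown because both genes rose in every alternative run, and capitals mark the CCAAT box (CCAAT or its complement ATTGG, in 37.4% of windows) and the GC box (GGGCGG or its complement CCGCCC, in 35.7%). These boxes were added after the values were seen. Junb is on the minus strand at chr8:84978699-84978998 and Bbc3 on the plus strand at chr7:16309333-16309632.
Junb: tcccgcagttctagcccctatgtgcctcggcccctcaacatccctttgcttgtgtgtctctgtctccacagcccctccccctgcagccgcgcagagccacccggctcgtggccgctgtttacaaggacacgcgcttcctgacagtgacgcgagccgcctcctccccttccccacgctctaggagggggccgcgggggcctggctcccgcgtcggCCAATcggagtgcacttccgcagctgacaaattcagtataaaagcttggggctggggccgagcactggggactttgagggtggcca
Bbc3: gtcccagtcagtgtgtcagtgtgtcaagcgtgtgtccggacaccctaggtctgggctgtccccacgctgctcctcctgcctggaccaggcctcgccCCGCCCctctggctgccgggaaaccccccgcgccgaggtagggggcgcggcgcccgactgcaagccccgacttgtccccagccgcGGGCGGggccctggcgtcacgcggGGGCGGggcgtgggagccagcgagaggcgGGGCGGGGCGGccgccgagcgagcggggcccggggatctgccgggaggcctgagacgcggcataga
The Junb window held 1 CCAAT box and the Bbc3 window 5 GC boxes, of which the last 2 overlap. A match is a description of the letters in the window and not of binding.

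Some genes of cell division were lower in subgroup 1. Of 32 tested genes of G2 and M phase 0 rose and 9 fell (28.1%, against 16.8% of all genes), with a median of -1.03, and 28 of the 32 had a negative log2 fold change. In 10 of these genes (31.3%) both subgroup 1 libraries were the lowest of all 20, against 405 of all genes tested (2.35%). The summed level of the list was 132.8 and 131.5 CPM in subgroup 1, 169.5 to 733.5 CPM in neurofibroma, 325.6 and 705.8 in subgroup 2 and 829.5 to 2256 in GEM-PNST. The lowest neurofibroma sum, in library 11, held 31.8 CPM of Hmmr and 17.6 CPM of Nuf2. In subgroup 1 these genes had 1.17 and 0.887 CPM (Hmmr) and 1.37 and 2.22 CPM (Nuf2). The gap between subgroup 1 and this lowest neurofibroma sum therefore rests on Hmmr and Nuf2. This does not hold for the neurofibroma group as a whole, whose median sum was 276.1 CPM. After trend removal 5 of the 32 fell and 0 rose, with a median of -0.75.

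Hmmr, a spindle protein, had 29.5, 34.9 and 49.5 CPM in neurofibroma and 1.17 and 0.887 in subgroup 1, against 4.04 and 12.5 in subgroup 2 and 12.5 to 33.4 in GEM-PNST. It fell by 5.12 (SE 0.48, adjusted p = 2.17e-07). Nuf2, part of the kinetochore, had 17.5, 21.1 and 28.7 CPM in neurofibroma and 1.37 and 2.22 in subgroup 1, and fell by 3.6 (SE 0.37, adjusted p = 7.83e-07). Hmmr and Nuf2 passed in every alternative run. Birc5, which encodes the mitotic protein survivin, had 3.63 to 10.2 CPM in neurofibroma and 2.25 and 2.88 in subgroup 1, and fell by 1.35 (SE 0.40, adjusted p = 0.0128). The Birc5 call was lost without subgroup 1 library 1 (adjusted p = 0.201) or 2 (adjusted p = 0.081). Mki67, a marker of cycling cells, overlapped between the groups (17.8 and 15.8 CPM against 10.9, 45.5 and 173.1), with a log2 fold change of -1.82 (SE 0.83, adjusted p = 0.101; 0.0232 by DESeq2 and 0.0254 by limma-voom with sample weights). Top2a, which untangles DNA before mitosis, overlapped too (11.8 and 9.35 CPM against 2.83 to 75.2; log2 fold change -1.20, SE 0.85, adjusted p = 0.304).

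**Figure D4:**
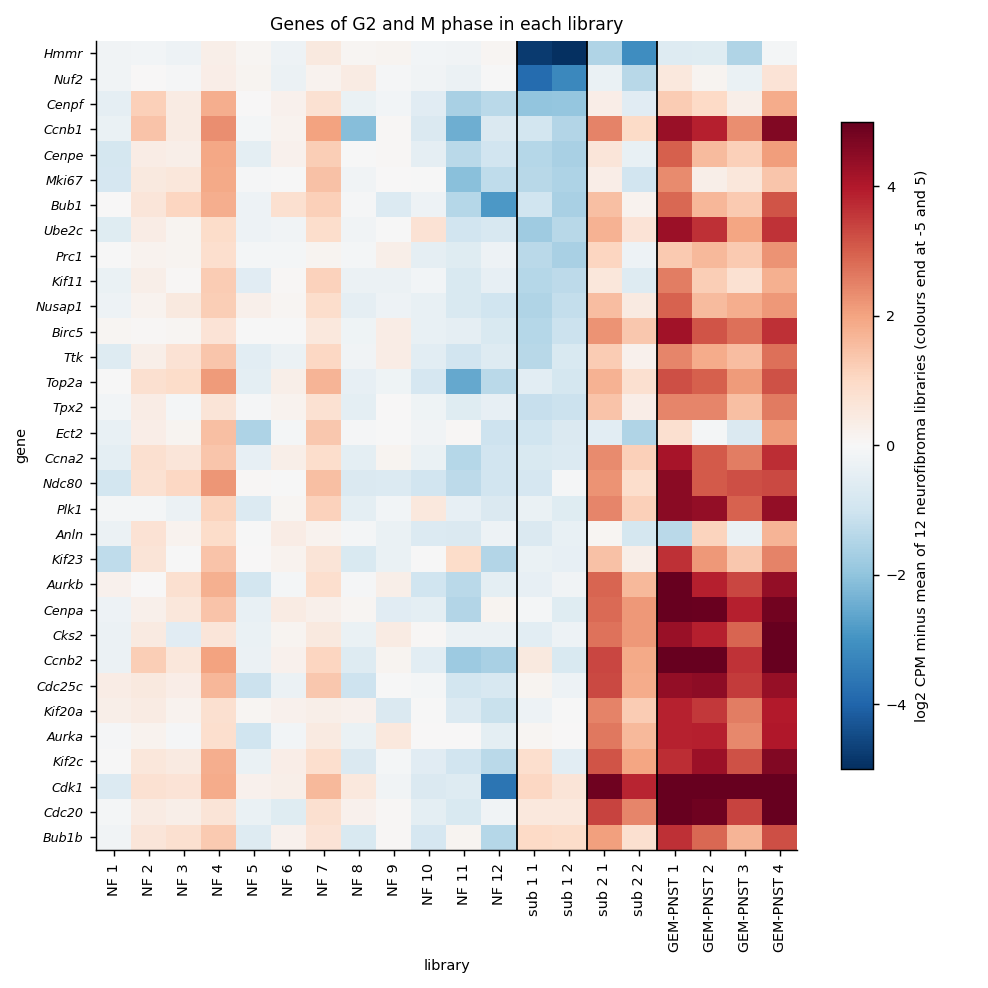
Level of each of 32 genes of G2 and M phase in the 20 libraries, as log2 CPM minus the mean of the 12 neurofibroma libraries (blue lower, red higher, colours end at -5 and 5). Rows are ordered by log2 fold change and columns by group. The columns of subgroup 1 (sub 1 1 and sub 1 2) are blue in most rows, those of subgroup 2 and GEM-PNST are mostly red, and neurofibroma library 4 is the reddest of its group.

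In the list of DNA replication and S phase 2 of 30 tested members rose (6.67%, against 17.4% of all genes) and 3 fell (10%, against 16.8%). The median was -0.11, and 19 of the 30 had a negative log2 fold change. Orc1, part of the complex that marks replication origins, fell by 5.81 (SE 0.70, adjusted p = 4.05e-06), from 5.67, 9.35 and 14.9 CPM in neurofibroma to 0.249 and 0.0887. Tyms, which makes thymidylate, fell by 2.03 (SE 0.37, adjusted p = 0.000279), and at 5.24 and 4.65 CPM the subgroup 1 libraries were the lowest of all 20. Fen1, an endonuclease that trims lagging strands, rose by 2.26 (SE 0.34, adjusted p = 4.14e-05), from 0.908 to 3.53 CPM in neurofibroma to 9.77 and 10.8. These 3 genes passed after trend removal.

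Ribosomal protein and respiratory chain genes were called higher more often than the background. Of 82 tested cytosolic ribosomal protein genes 32 rose (39.0%, against 17.4% of all genes) and 8 fell (9.76%, against 16.8%). The median was 0.57, or 0.61 after trend removal. Rps26, of the small subunit, had 32.9, 39.3 and 50.4 CPM in neurofibroma and 151.6 and 130.8 in subgroup 1, and rose by 1.78 (SE 0.24, adjusted p = 1.1e-05). In the large subunit, Rpl7 rose by 1.35 (SE 0.27, adjusted p = 0.000714), with 428.0 and 371.2 CPM against 96.1 to 219.1. Rpl23a fell by 0.90 (SE 0.28, adjusted p = 0.0155). The Rpl23a call was lost after trend removal (-0.38, adjusted p = 0.274) and without subgroup 1 library 1 (adjusted p = 0.101) or 2 (adjusted p = 0.203). Both subgroup 1 libraries were the lowest of all 20 in 8 of these 82 genes (9.76%), Rpl23a among them, against 405 of all genes tested (2.35%). Ribosomal protein genes have many near-identical pseudogenes, so their counts are uncertain where reads could be split. The summed level of the list was 18152 and 15049 CPM in subgroup 1, 8702 to 15990 in neurofibroma and 69380 to 190884 in GEM-PNST.

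Of 78 tested nuclear-encoded subunits of the respiratory chain 21 rose (26.9%, against 17.4% of all genes) and 2 fell (2.56%, against 16.8%). Their median was 0.44. After trend removal 28 rose and 3 fell. Atp5j2, a subunit of ATP synthase, had 9.44 to 34.6 CPM in neurofibroma and 90.6 and 96.7 in subgroup 1, and rose by 2.12 (SE 0.28, adjusted p = 8.74e-06). Ndufb7, of complex I, rose by 1.89 (SE 0.24, adjusted p = 7.48e-06), with 49.5 and 50.4 CPM against 8.64 to 19.99. Cycs, the electron carrier cytochrome c, fell by 1.83 (SE 0.50, adjusted p = 0.00773), and its log2 fold change was -1.14 (adjusted p = 0.106) after trend removal. The Cycs call was also lost without subgroup 1 library 1 (adjusted p = 0.107) or 2 (adjusted p = 0.0789). Mitochondrially encoded transcripts were not analysed here.

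Markers of the Schwann cell lineage were present in subgroup 1. Their summed level over 19 genes was 3673 and 4605 CPM, against 2502 to 3834 in neurofibroma, and none of the 19 was at 0 in both libraries. Of 18 tested members 0 rose and 0 fell (17.4% and 16.8% of all genes did), with a median of 0.45 (-0.19 after trend removal). Sox10, the transcription factor that sets glial identity, had 61.2, 160.6 and 237.4 CPM in neurofibroma and 303.4 and 447.8 in subgroup 1, above every neurofibroma library. Sox10 did not pass (log2 fold change 1.24, SE 1.16, adjusted p = 0.452). The GEM-PNST libraries, which share the estimate of the spread, ranged from 0.486 to 437.0 CPM in Sox10, and with only the 14 libraries compared its adjusted p was 0.00272. After trend removal the sign of Sox10 turned (-0.52, adjusted p = 0.851). Erbb3, the receptor for neuregulin in Schwann cells, had 38.2 to 168.9 CPM in neurofibroma and 195.4 and 300.3 in subgroup 1, the highest of all 20 libraries, without passing (log2 fold change 1.21, SE 0.76, adjusted p = 0.241; 0.02 with only the 14 libraries compared).

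Myelin genes differed between the 2 subgroup 1 libraries, with a summed level of 8582 CPM in library 1 and 19904 in library 2, both within the neurofibroma range of 3678 to 26633. Of 19 tested members 2 rose (10.5%, against 17.4% of all genes) and 0 fell (against 16.8%), with a median of 0.52. Mag, an adhesion protein of the myelin sheath, had 5.65, 15.7 and 42.2 CPM in neurofibroma and 56.2 and 129.2 in subgroup 1, and rose by 2.39 (SE 0.60, adjusted p = 0.00413). Its call was lost without library 2 (1.77, adjusted p = 0.145) and after trend removal (1.23, adjusted p = 0.217). Prx, which encodes the periaxin scaffold of myelin, rose by 1.89 (SE 0.69, adjusted p = 0.0411), with 682.1 and 1623 CPM against 82.0 to 844.5. The Prx call was lost in 9 of 18 alternatives, among them without library 2 (adjusted p = 0.422), without neurofibroma library 4 (adjusted p = 0.0551) and after trend removal (0.74, adjusted p = 0.54). In bulk samples fewer cells of a type and less RNA per cell cannot be told apart.

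Transcripts of sensory neurons, which can enter through nerve roots and ganglia, were present in both groups. Their summed level over 30 genes was 7625 and 10294 CPM in subgroup 1 and ranged from 581.2 CPM (library 4) to 19516 CPM (library 11) in neurofibroma, with a median of 6278. Of 30 tested members 2 rose (6.67%, against 17.4% of all genes) and 0 fell (against 16.8%), with a median of 0.14. Uchl1, a neuronal ubiquitin hydrolase, rose by 2.36 (SE 0.85, adjusted p = 0.0369), with 891.1 and 929.1 CPM against 8.86 to 450.5. Its call was lost after trend removal (1.54, adjusted p = 0.26), without either subgroup 1 library (adjusted p = 0.132 and 0.147), without neurofibroma library 8 (adjusted p = 0.05) and with each neurofibroma run alone (adjusted p = 0.0529 and 0.114). The part of neuronal tissue in these differences was not tested.

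Among genes of fibroblasts and interstitial matrix 2 of 28 rose (7.14%) and 0 fell, and of 15 basement membrane genes 3 rose (20%) and 0 fell. Of all genes 17.4% rose and 16.8% fell. After trend removal 1 fibroblast and matrix gene and 0 basement membrane genes rose. Gsn, which encodes gelsolin, a protein that severs actin filaments, had 132.4, 504.4 and 901.7 CPM in neurofibroma and 5354 and 3035 in subgroup 1. Both subgroup 1 libraries exceeded the highest neurofibroma library, and Gsn rose by 2.94 (SE 0.38, adjusted p = 8.3e-06), and by 1.80 after trend removal. Col4a1, a collagen chain of basement membranes, rose by 1.40 (SE 0.40, adjusted p = 0.0099), with 533.3 and 529.1 CPM against 48.2 to 359.8. Lamb2, a laminin chain, rose by 1.55 (SE 0.52, adjusted p = 0.0263), with 416.8 and 254.8 CPM against 23.1 to 174.9. The call of Col4a1 was lost after trend removal (0.30, adjusted p = 0.724) and without either subgroup 1 library (adjusted p = 0.0615 and 0.063). That of Lamb2 was lost after trend removal (0.24, adjusted p = 0.828), without subgroup 1 library 1 (adjusted p = 0.252) and with neurofibroma run 1 alone (adjusted p = 0.0875). Apoe, a lipid carrier of glia and macrophages, rose by 2.17 (SE 0.36, adjusted p = 0.000117), with 2767 and 2744 CPM against 334.2 to 1034, and after trend removal its log2 fold change was 0.92 (adjusted p = 0.144).

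Few markers of immune cells passed the test. Of 21 macrophage genes 1 rose (4.76%, against 17.4% of all genes) and 0 fell (against 16.8%). Their summed level was 1622 and 788.3 CPM against 204 to 2627. Of 15 genes of T and NK cells 0 rose and 1 fell (6.67%, against 16.8% of all genes), with a median of -2.39. Their summed level was 12.7 and 3.46 CPM against 12.5, 23.1 and 352.5. The one that fell was Cd3d, a chain of the T cell receptor complex, by 3.87 (SE 1.39, adjusted p = 0.038), with 0.749 and 0.133 CPM against 3.35 to 13.1. The Cd3d call was lost without either subgroup 1 library (adjusted p = 0.0961 and 0.28), with neurofibroma run 1 alone (adjusted p = 0.0539) and after trend removal, where its fold change was nearly the same (-3.84, adjusted p = 0.0582). Cd8a, of cytotoxic T cells, had 0.915 and 0.31 CPM against 1.61, 5.3 and 101.7 and did not pass (log2 fold change -4.73, SE 2.02, adjusted p = 0.079; 0.00107 by DESeq2). Of 12 mast cell genes 1 rose (8.33%, against 17.4% of all genes). It was Tpsb2, a tryptase (33.0 and 22.8 CPM against 0.515 to 11.7, adjusted p = 0.0487). The Tpsb2 call was lost in 12 of the alternatives, trend removal included (1.29, adjusted p = 0.385).

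**Figure D5:**
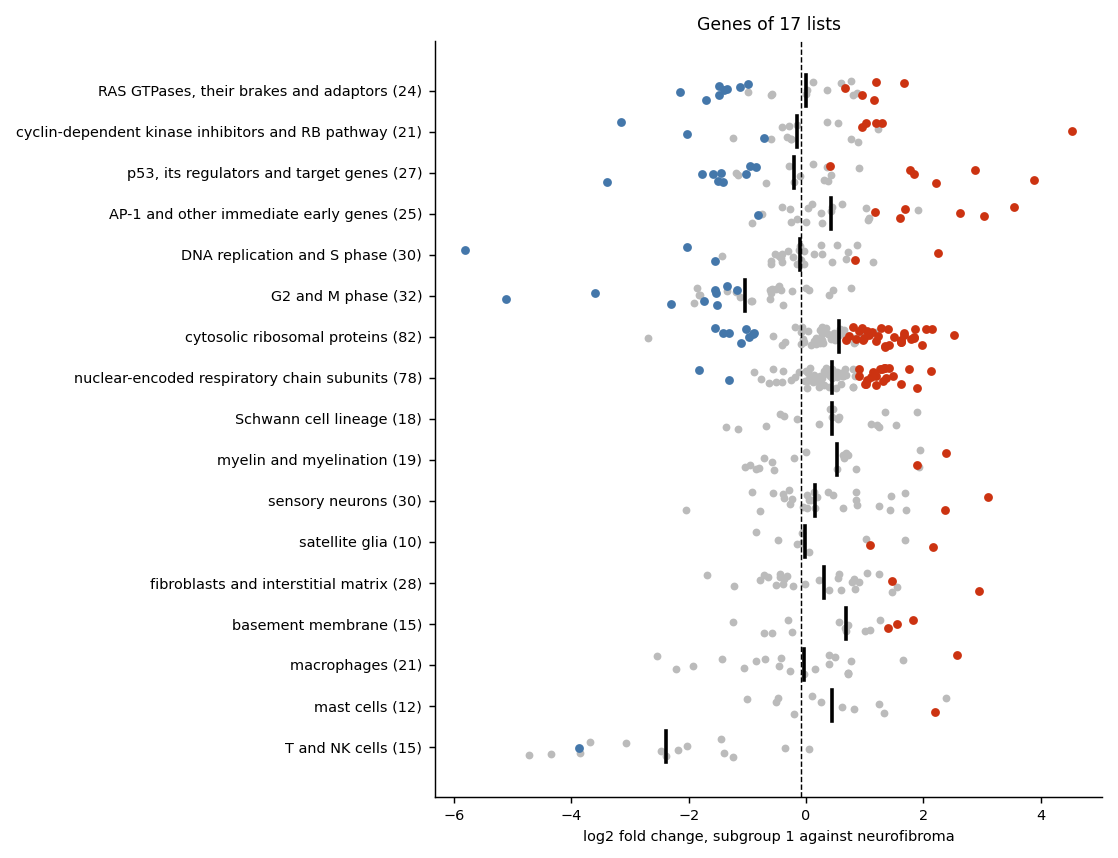
Log2 fold change of subgroup 1 against neurofibroma for the tested members of 17 lists (number of members in brackets). Each point is a gene, red if it rose, blue if it fell and grey if it did not pass an adjusted p of 0.05. Black bars are list medians, and the dashed line is the median of all genes tested, -0.08.

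Of the largest rises outside the lists, 4 are described. Stub1, a ubiquitin ligase that works with chaperones, had 3.15, 5.47 and 8.90 CPM in neurofibroma and 89.9 and 88.5 in subgroup 1, and rose by 3.94 (SE 0.23, adjusted p = 4.86e-10). Gnb2, a G protein subunit, rose by 3.48 (SE 0.21, adjusted p = 6.36e-10), with 241.1 and 223.1 CPM against 15.5 to 25.8. Ppib, a chaperone of the collagen folding pathway, rose by 3.27 (SE 0.22, adjusted p = 4.99e-09), and by 3.08 after trend removal. Cirbp, an RNA-binding protein induced by cold, rose by 3.18 (SE 0.31, adjusted p = 4.49e-07). In these 4 genes subgroup 2 and GEM-PNST, of the same run, were also high: Stub1 had 148.6 and 156.5 CPM in subgroup 2 and 135.0 to 288.0 in GEM-PNST, and Ppib had 448.2 and 620.0 and 543.1 to 1133. All 4 passed in every alternative run.

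Another set of genes was highest or lowest in subgroup 1 over all 20 libraries, including the other libraries of its own run. Both subgroup 1 libraries exceeded the other 18 in 563 genes tested (3.26%) and lay below them in 405 (2.35%). Of these, 130 rose and 144 fell in the comparison with neurofibroma both as fitted and after trend removal. Genes were named from this set after their values were seen. In each gene named here and in the next paragraph, subgroup 2 also lay beyond all neurofibroma libraries, on the same side as subgroup 1. Pcsk1n had 95.6 and 97.9 CPM in subgroup 2 against at most 38.6 in neurofibroma. Dynll2 had 183.3 and 205.9 CPM against at most 79.5, and Brip1 2.06 and 4.15 CPM against at least 9.79. Flywch1, a zinc finger protein, had 4.68, 10.7 and 19.8 CPM in neurofibroma and 130.6 and 131.4 in subgroup 1, against 33.1 and 39.2 in subgroup 2 and 7.69 to 17 in GEM-PNST. It rose by 3.45 (SE 0.29, adjusted p = 7.46e-08). Brsk1, a kinase of axon formation, rose by 3.63 (SE 0.57, adjusted p = 6.17e-05), with 78.4 and 92.8 CPM against 1.98 to 13.7. Nyap1, a neuronal adaptor of PI3 kinase, rose by 3.37 (SE 0.62, adjusted p = 0.000313), and Pcsk1n, an inhibitor of prohormone processing, by 3.15 (SE 0.67, adjusted p = 0.00105), with 181.4 and 141.4 CPM against 0.439 to 38.6.

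Dynll2, a dynein light chain, had 12.6, 38.2 and 79.5 CPM in neurofibroma and 272.4 and 357.9 in subgroup 1, and rose by 2.94 (SE 0.33, adjusted p = 2.15e-06). Dctn1, the largest subunit of dynactin, rose by 2.64 (SE 0.31, adjusted p = 3.05e-06), with 340.2 and 380.7 CPM against 22.7 to 109.6. Brsk1, Nyap1, Pcsk1n, Flywch1, Dynll2 and Dctn1 were each lowest in neurofibroma library 4 and highest in library 11 within that group, the libraries with the lowest and the highest summed sensory neuron markers (581.2 and 19516 CPM, against 7625 and 10294 in subgroup 1). The part of neuronal tissue in these rises was not tested. Foxo4, a FOXO transcription factor restrained by AKT, rose by 2.56 (SE 0.33, adjusted p = 8.73e-06), with 67.6 and 80.3 CPM against 5.33 to 19.6. Among those at their lowest, Racgap1, which guides cytokinesis, had 156.6, 186.1 and 213.2 CPM in neurofibroma and 8.65 and 8.24 in subgroup 1, against 15.1 and 33.1 in subgroup 2 and 44.2 to 187.7 in GEM-PNST. It fell by 4.46 (SE 0.52, adjusted p = 2.68e-06). Brip1, a helicase of DNA repair, fell by 4.87 (SE 0.51, adjusted p = 8.21e-07), with 0.707 and 0.266 CPM against 9.79 to 20.4.

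The largest falls were transcripts with no or almost no reads in subgroup 1. In 503 of the 2906 genes called lower both subgroup 1 libraries had 0 counts. Olfr613, annotated as an olfactory receptor, had 227.8, 286.9 and 318.2 CPM in neurofibroma and 0 counts in subgroup 1, which is at least 4322-fold lower when 3 counts over the 2 libraries are taken as the floor. It also had 0 counts in all subgroup 2 and GEM-PNST libraries. Igf2bp3, an RNA-binding protein of fetal tissue and tumors, had 13.1 to 20.5 CPM in neurofibroma and 0 counts in subgroup 1, at least 253-fold lower, and at most 0.242 CPM in any subgroup 2 or GEM-PNST library. Zfp488, a zinc finger protein of glia, had 442.1 to 601.2 CPM in neurofibroma and 1 count over both subgroup 1 libraries, a ratio of 24712 (95% counting interval 4435 to 976089), and at most 0.595 CPM in the other libraries of that run. Floors and intervals cover counting error only. Members of receptor families and overlapping or antisense genes are uncertain, as the sources used here do not say whether reads were counted by strand. The submitters' processing notes name both TopHat and HISAT2 without saying which libraries each served, and its part in these values was not tested.

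Of 8 nuclear and non-polyadenylated RNAs tested 4 fell (50%, against 16.8% of all genes) and 0 rose (against 17.4%). Malat1, an abundant nuclear RNA, had 25914, 29291 and 32556 CPM in neurofibroma and 526.5 and 716.7 in subgroup 1, and fell by 5.57 (SE 0.83, adjusted p = 3.86e-05). Kcnq1ot1, an antisense RNA of an imprinted locus, fell by 7.31 (SE 0.88, adjusted p = 4.07e-06), with 9.73 and 6.47 CPM against 971.3 to 1695. Neat1, another nuclear RNA, overlapped (1442 and 1883 CPM against 498.8 to 2069; log2 fold change 0.38, SE 0.42, adjusted p = 0.534), and passed after trend removal (1.68, adjusted p = 0.00732). In subgroup 2 and GEM-PNST, Malat1 ranged from 158.4 to 1187 CPM.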

How the data were processed

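The deposited table gives whole-number counts of reads per gene for 24062 genes in 20 libraries. Per the labels, RNA was isolated with an RNeasy Plus Micro Kit and libraries came from an Illumina Nextera XT kit. The submitters' processing notes list TopHat, HISAT2, featureCounts and mm10, with no version or role. Columns headed by digits only, whose unit is entered as other, are deposited counts as well. Tests were quasi-likelihood F tests of edgeR 4.0.16 (R 4.3.3) on raw counts with TMM factors and edgeR's expression filter. All 20 libraries entered in 4 groups and share 1 estimate of the spread. Benjamini-Hochberg adjustment ran over all 17258 genes tested (threshold 0.05), and edgeR is the source of each adjusted p of a gene where no tool is given. CPM use the library total times the TMM factor. Positions, length and GC content come from GENCODE vM21 on GRCm38, the build of mm10, for the longest transcript of a gene.

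Alternatives were RLE and upper-quartile factors, no filter, at least 1 CPM in 4 libraries, limma-voom with sample weights (limma 3.58.1), only the 14 libraries compared, DESeq2 1.42.0, a 2-fold minimum, each neurofibroma run alone, single libraries left out, a replicate block, no Rn45s or Malat1, and removal of a spline trend over length and GC content. On simulated data, with 16871 genes tested, the test recovered 14 of 100 genes changed 2-fold and 54 of 100 changed 4-fold, and called 5 unchanged genes. Apart from the changed genes all groups had the same means, with no effect of run, length or GC content. The simulation therefore does not measure false calls from such effects in these data. To check for a library deposited more than once, counts were compared within pairs: chi-square per degree of freedom was 79.78 for the subgroup 1 pair and 22.63 to 323.30 for neurofibroma pairs.

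Genes were named by 3 criteria: targeted and sex-linked genes, the 12 strongest changes each way (past the threshold, groups not overlapping, mean log2 CPM of 3 or more, predicted genes left out), and the first 2 plus up to 4 called members of each list. A selection is printed. Genes named for being highest or lowest of all 20 libraries, and further list members such as Sos1, Jun or Mdm4, were singled out after their values were seen. The members compared, the gene lists and the tests were chosen with earlier results of these data known. A few list members are not reported here.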

Additional observations from a re-analysis of the deposited data

How the results depend on the processing

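The counts of genes called were 5907 in all, 3001 higher and 2906 lower. They were 2160, 885 and 1275 with a 2-fold minimum, 9664, 4973 and 4691 by limma-voom with sample weights, and 3453, 1621 and 1832 after removal of the length and GC trend. Leaving out single libraries gave 3666 to 5825 in all, 2181 to 3030 higher and 1485 to 2867 lower, with the fewest in all without subgroup 1 library 1 (3666) or library 2 (3782). With the replicate block the counts were 1412, 782 and 630. The alternatives not listed here stayed within 1.5 times. The groups share replicate numbers from the titles, with 2 shared pairs. The deviations of same-numbered libraries correlated at 0.07 and 0.17, and those of differently numbered libraries at -0.17 and -0.07. With 2 libraries in subgroup 1 their deviations mirror each other, so these values cannot show whether same-numbered samples are related. Between the neurofibroma runs 0 genes passed in each of the 3 fits. Of 84 single genes followed, 74 passed and 34 of these passed in every alternative. The call was lost by 27 after trend removal, 30 with the block, 27 with a 2-fold minimum, 16 without subgroup 1 library 1 and 16 without library 2. The sign turned for Trp53 with neurofibroma run 2 alone (0.07) and without subgroup 1 library 2 (0.08, against -0.09 without library 1), for Cdkn1a without subgroup 1 library 1 (0.12, against -0.54 without library 2), and for Sox10 after trend removal (-0.52). With 2 libraries in subgroup 1, leaving 1 out assumes that the other varies like the other groups.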

Other observations

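Of 11 tested genes of polycomb repressive complex 2, which silences developmental genes, 2 rose (18.2%, against 17.4% of all genes) and 3 fell (27.3%, against 16.8%), and after removal of a trend over length and GC content 2 rose and 0 fell. Phf1, an accessory subunit, had 10.4, 15.5 and 26.3 CPM in neurofibroma and 99.8 and 81.5 in subgroup 1, and rose by 2.41 (SE 0.24, adjusted p = 6.01e-07), a call kept in every alternative run. Rbbp4, a histone-binding subunit, rose by 1.04 (SE 0.16, adjusted p = 4.77e-05), with 102.1 and 118.1 CPM against 43.3 to 63.8. Mtf2, another accessory subunit, fell by 1.34 (SE 0.22, adjusted p = 0.000119), and after removal of the length and GC trend its log2 fold change was -0.46 (adjusted p = 0.0782).

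In the Hippo pathway, which limits growth through the kinases LATS1 and LATS2, 4 of 18 genes rose (22.2%) and 3 fell (16.7%), shares near those of all genes, and after trend removal 0 rose and 2 fell. Lats1 fell by 1.55 (SE 0.26, adjusted p = 0.000111), with 46.8 and 48.2 CPM against 109.7 to 176.7, and by 0.77 after trend removal (adjusted p = 0.013). Amotl2, which binds YAP, rose by 1.89 (SE 0.50, adjusted p = 0.00626), with 89.7 and 114.9 CPM against 10.5 to 40.2, and its log2 fold change was 0.75 (adjusted p = 0.395) after trend removal, and its call was lost without subgroup 1 library 2 (adjusted p = 0.0722). Of 21 genes of sterol and fatty acid synthesis 3 rose (14.3%, against 17.4% of all genes) and 1 fell (4.76%, against 16.8%). Srebf2, the main activator of the sterol pathway, rose by 1.38 (SE 0.42, adjusted p = 0.0139), with 233.6 and 226.6 CPM against 64.8 to 113.6, while Idi1, an early enzyme, fell by 2.27 (SE 0.67, adjusted p = 0.0125). Neither passed after trend removal (0.16, adjusted p = 0.887 for Srebf2, and -1.64, adjusted p = 0.0671 for Idi1), nor without subgroup 1 library 1 (adjusted p = 0.0685 and 0.166) or library 2 (adjusted p = 0.0631 and 0.101).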
